A study of Homo sapiens with 2 samples.

Results

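The 10 genes described here are alpha- and beta-tubulin genes, read in a human colon cancer line, with TUBB4A as the member for which the 2 libraries listed different leading isoforms. They were chosen by symbol: TUBA1A, TUBA1B and TUBA1C encode alpha-tubulins, and TUBB, TUBB2A, TUBB2B, TUBB3, TUBB4A, TUBB4B and TUBB6 encode beta-tubulins. They are 10 of 26257 gene symbols and 113 of 63236 isoforms in the deposited table. TUBB4A was singled out by its isoform values in these libraries, so its isoform values below are a description and carry no test. The RNA came from HCT-116, an established human colorectal carcinoma line that is used as a model of epithelial tumour cells. The LPA group was 1 library of serum-starved cells given lysophosphatidic acid (LPA), a signalling lipid that acts through G protein-coupled receptors, at 10 µM for 24 h. The control group was 1 library of HCT-116 cells, named as control by its title alone. Its label carries the same treatment text as that of the LPA library, so whether the control cells were serum starved or given a vehicle is not known. With 1 library per group there is no replicate spread, no test between conditions was possible, and LPA cannot be told apart from other differences between the libraries.

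Tubulins are the building blocks of microtubules, the hollow filaments that carry cargo, shape the cell and form the mitotic spindle. Each subunit of a microtubule is a dimer of an alpha- and a beta-tubulin, folded with the help of chaperones before it can assemble. Humans carry several genes (isotypes) for each class, and these encode nearly the same protein except at the acidic carboxy-terminal tail, which faces outwards from the filament and carries most of the modifications. TUBB, TUBB4B, TUBA1B and TUBA1C are made in most dividing cells, whereas TUBB3, TUBB4A, TUBB2A, TUBB2B and TUBA1A are best known from neurons.

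Levels are FPKM, numbers of fragments adjusted for the depth of the library and the length of the transcript, which can therefore be set side by side between genes. The FPKM of a gene is the sum over its isoforms. FPKM summed to 709125 in the LPA library and 717768 in the control library, with 11642 and 11692 genes at 1 FPKM or more. A cluster of low values, each taken as 1 fragment, put the depth at about 15700000 fragments in the LPA library and 16700000 in the control library. Numbers of fragments below rest on this rough estimate. Log2 ratios are of (FPKM + 1), LPA over control. Over the 11688 genes with a mean of at least 1 FPKM their median was 0.00, and 95% of genes lay between −0.51 and 0.49.

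TUBB4A, a beta-tubulin known mainly from brain and myelinating cells, was listed almost wholly as one RefSeq isoform in the LPA library and almost wholly as another in the control library. NM_001289123 stood at 16.0 FPKM in the LPA library, with deposited bounds of 11.2 to 20.9, and at 0.0940 FPKM in the control library, with bounds of 0 to 0.512. NM_001289127 stood at 0.292 FPKM in the LPA library, with bounds of 0 to 0.944, and at 23.7 FPKM in the control library, with bounds of 17.0 to 30.3. Neither pair of bounds overlapped. The lower bound of NM_001289123 in the LPA library was 21.9 times its upper bound in the control library. For NM_001289127 the lower bound in the control library was 18 times the upper bound in the LPA library. The bounds come from the authors' software, their level is not stated, and they hold no variation between cultures. Expressed as a share of the gene, NM_001289123 made up 87.8% of TUBB4A in the LPA library and 0.396% in the control library. NM_001289127 made up 1.60% of TUBB4A in the LPA library and 99.6% in the control library. The 2 isoforms are named TUBB4A-210 and TUBB4A-208 in GENCODE release 29. Their splice junction between exons 1 and 2 is shown because it is where they differ in the coding sequence, with 6 bases of shared sequence on each side and the bases found only in NM_001289123 in capitals. Both are read on the minus strand of GRCh38 from the GENCODE transcripts.
NM_001289123: actgagCGGCTCCCGGGGGCGCAGggaccg
NM_001289127: actgagggaccg

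**Figure D1:**
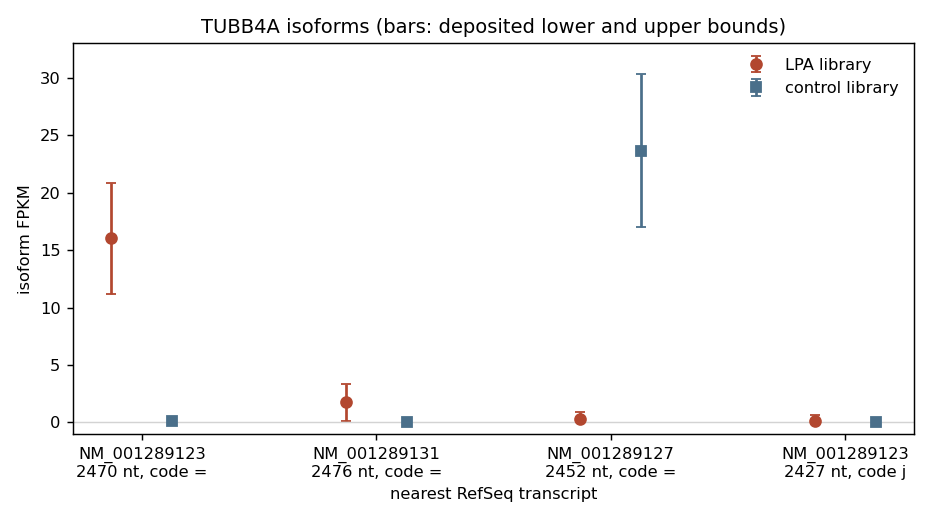
FPKM of the TUBB4A isoforms above 0 in either library (vertical axis), LPA library (circles) to the left of the control library (squares), with the authors' lower and upper bounds as bars; each isoform is marked by its nearest RefSeq transcript, its length and its class code. NM_001289123 is high only in the LPA library (16.0 FPKM against 0.0940 in the control library) and NM_001289127 only in the control library (0.292 FPKM in the LPA library against 23.7 in the control library).

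The extra stretch of NM_001289123 is 18 bases long, at chr19:6502315-6502332. It is the start of exon 2, which runs over chr19:6502156-6502332 in NM_001289123 and chr19:6502156-6502314 in NM_001289127. Exon 1 ends at the same base, 6502679, in both models, and exons 3 and 4 are the same. The GENCODE models begin exon 1 at 6502803 for NM_001289123 and at 6502844 for NM_001289127. The deposited lengths, 2470 nt for NM_001289123 and 2452 nt for NM_001289127, differ by the same 18 nt, which is 0.729% of the longer isoform. In these 2 GENCODE models the stretch is annotated as coding and adds 6 codons in frame, between an upstream ATG at 6502711 and the usual TUBB4A start codon at 6502212. From the upstream ATG to the usual one there are 51 codons in NM_001289123 and 45 in NM_001289127. In other GENCODE models of TUBB4A the same bases lie in the 5′ UTR or are absent. Both GENCODE models end early, so only their 5′ exons were compared.

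**Figure D2:**
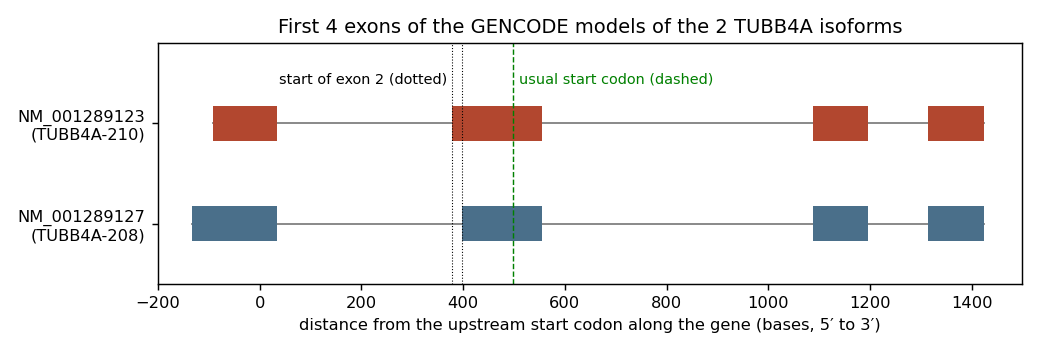
Exons 1 to 4 (boxes) of the GENCODE models of NM_001289123, the leading TUBB4A isoform of the LPA library (above), and NM_001289127, that of the control library (below), by distance in bases from the upstream start codon. The dotted lines mark the 2 starts of exon 2, 18 bases apart, and the dashed line marks the usual start codon.

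The remaining TUBB4A isoforms were low. NM_001289131, which has another start site ID in the table, stood at 1.77 FPKM (bounds 0.147 to 3.39) in the LPA library and was listed at 0 in the control library, with an upper bound of 0.0555. An isoform of 2427 nt with a splice pattern that differs from NM_001289123 was listed at 0.161 FPKM in the LPA library and 0 in the control library. NM_006087, NM_001289129 and NM_001289130 were listed at 0 in both libraries. Summed by start site ID, TUBB4A did not have a different leading start: the start site ID shared by both leading isoforms held 16.5 FPKM in the LPA library and 23.8 FPKM in the control library. This was 90.3% of the gene in the LPA library and 100% in the control library. As a whole gene TUBB4A stood at 18.3 FPKM in the LPA library and 23.8 FPKM in the control library, a log2 ratio of −0.36, from about 709 and 972 fragments. The bounds of its leading isoform in the LPA library, 11.2 to 20.9 FPKM, overlapped those of its leading isoform in the control library, 17.0 to 30.3 FPKM.

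A different leading isoform in the LPA library was common in this table. Of the 6664 genes with at least 2 isoforms and a mean of at least 1 FPKM, 1053 had one, which is 15.8%. Among the members 7 had at least 2 isoforms, and TUBB4A was the 1 with a different leading isoform. In 5.34% of the 6664 genes, 356 in number and TUBB4A among them, the gaining isoform also had bounds that did not overlap. Isoforms at least 2-fold apart on the FPKM + 1 scale with separate bounds made up 3.99% of the 16999 isoforms compared. Of the 21 member isoforms compared, 2 met this, both of them from TUBB4A, and the members were chosen with this in view. The gain of NM_001289123 was 87.4 percentage points, and TUBB4A ranked 44th of the 6664 genes by the largest gain of any isoform and 41st of the 356. The median of the largest gain was 6.86 points over all 6664 genes and 30.0 points over the 1053 genes with a different leading isoform.

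**Figure D3:**
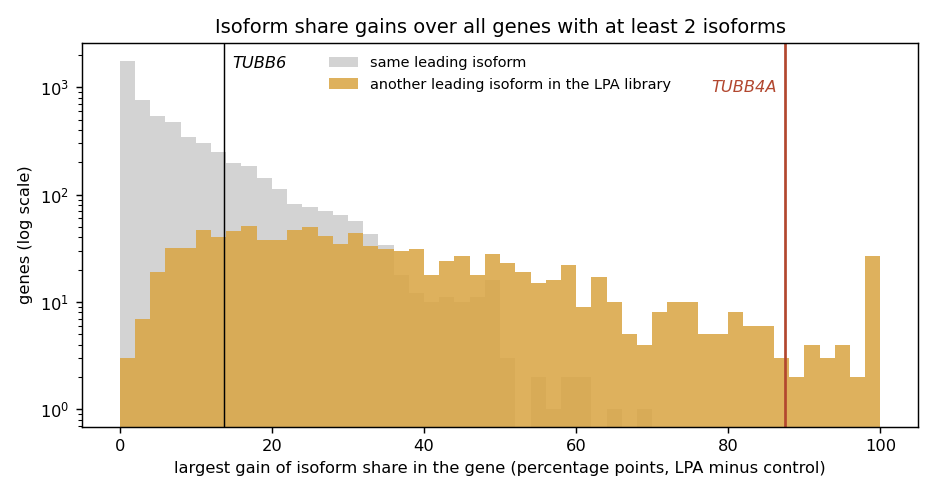
Number of genes (log scale) by the largest gain of isoform share within the gene, in percentage points, LPA minus control, over 6664 genes with at least 2 isoforms; genes with a different leading isoform in the LPA library are in orange and the others in grey. TUBB4A (red line) lies at 87.4 points and TUBB6 (black line) at 13.8 points.

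In part of these genes the leading isoforms were as close as those of TUBB4A in start site ID or in length. The leading isoforms had the same start site ID, as in TUBB4A, in 727 of the 1053 genes and in 240 of the 356. They differed in length by 18 nt or less in 111 of the 1053 genes and in 49 of the 356. The 5 genes whose largest gain was nearest to that of TUBB4A included GUSBP4, SLC30A6, MBOAT1 and ZNF189, with gains of 87.1, 88.0, 89.4 and 89.6 points. The leading isoforms of ZNF189 differed by 3 nt, and those of GUSBP4, SLC30A6 and MBOAT1 by 45 to 280 nt. These 4 genes had lower levels than TUBB4A: ZNF189 stood at 4.37 FPKM in the LPA library and 4.88 FPKM in the control library, and SLC30A6 at 5.29 FPKM in the LPA library and 4.45 FPKM in the control library. How far the software can tell apart isoforms that differ by so few bases was not tested, since no reads were used here.

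At the level of whole genes no tubulin member was 1.5-fold or more apart between the libraries on the FPKM + 1 scale, and 9 of the 10 had a mean of at least 1 FPKM. Over all 11688 genes 2.99% were that far apart, 1.45% higher and 1.54% lower in the LPA library. These are 169 genes higher and 180 lower, and with the ratios centred on the reference genes there were 127 higher and 258 lower. The order of the 10 members by level was the same in both libraries, from TUBA1B through TUBB, TUBA1C, TUBB4B, TUBA1A, TUBB3, TUBB6, TUBB4A and TUBB2A to TUBB2B. The table gives bounds for isoforms and not for genes, so this order of the gene sums has no error of its own. Between neighbours among the 4 most abundant, TUBA1B, TUBB, TUBA1C and TUBB4B, the bounds of the leading isoforms overlapped in both libraries. The same held between TUBB6 and TUBB4A. Those of TUBA1A and TUBB3, and of TUBB4A and TUBB2A, overlapped in the LPA library only. Those of TUBB4B and TUBA1A overlapped in the control library only.

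**Figure D4:**
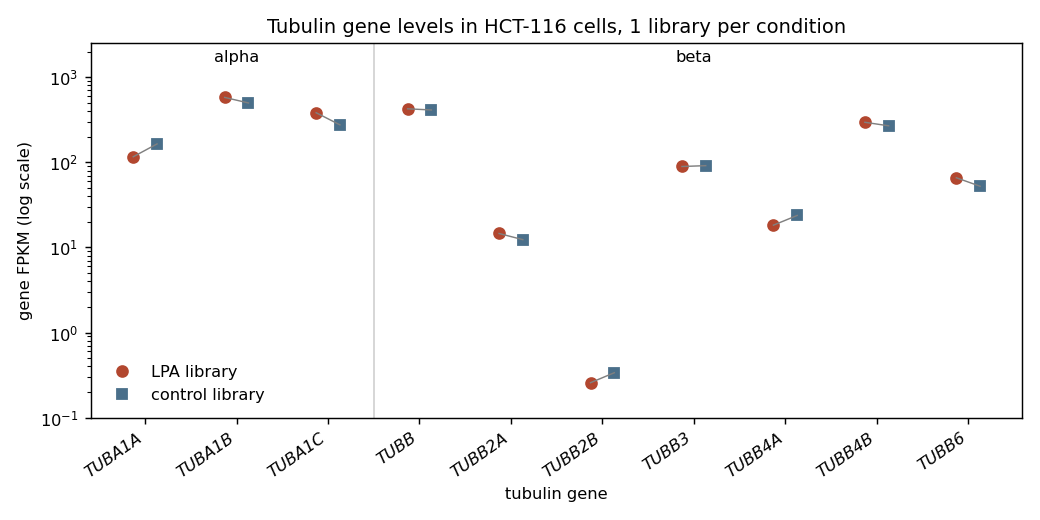
FPKM of each tubulin gene on a log scale, LPA library (circles) to the left of the control library (squares), 1 library each, joined by a line; no error is drawn because the table gives bounds for isoforms and not for genes. TUBA1A (116 FPKM in the LPA library, 165 in the control library) and TUBA1C (383 in the LPA library, 276 in the control library) lie furthest apart among the abundant members, in opposite directions.

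Among the alpha-tubulins, TUBA1A was lower and TUBA1C and TUBA1B were higher in the LPA library. TUBA1A (chr12:49184795-49189324 in hg38), the alpha isotype best known from developing neurons, stood at 116 FPKM in the LPA library and 165 FPKM in the control library. Its log2 ratio of −0.50 was at percentile 2.85 of the 11688 genes. TUBA1C (chr12:49227926-49273338), a widely made alpha isotype, stood at 383 FPKM in the LPA library and 276 FPKM in the control library. Its log2 ratio of 0.47 was at percentile 97.2. TUBA1B (chr12:49127784-49131521), the most abundant member, stood at 579 FPKM in the LPA library and 498 FPKM in the control library, a log2 ratio of 0.22. The bounds of the leading isoform overlapped between the libraries in all 3 genes. For TUBA1A (NM_006009) they ran from 83.2 to 147 FPKM in the LPA library and from 119 to 209 in the control library, and for TUBA1C (NM_032704) from 275 to 491 in the LPA library and from 199 to 352 in the control library. TUBA1A thus made up 10.8% of the alpha sum in the LPA library and 17.5% in the control library. TUBA1C made up 35.5% in the LPA library and 29.4% in the control library. TUBA1B held a like share in both, 53.7% in the LPA library and 53.1% in the control library.

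Among the beta-tubulins the log2 ratios ran from −0.36 for TUBB4A to 0.33 for TUBB6. TUBB (chr6:30720201-30725426), the beta isotype of most dividing cells, stood at 426 FPKM in the LPA library and 413 FPKM in the control library, a log2 ratio of 0.04. Its leading isoform NM_178014 stood at 318 FPKM in the LPA library and 320 FPKM in the control library. A second TUBB isoform, NM_001293214, was listed at 78.0 FPKM (bounds 24.1 to 132) in the LPA library and 65.7 FPKM (bounds 16.1 to 115) in the control library. The table lists TUBB 80 times, 70 of them on alternate haplotypes of chromosome 6, where all values were 0. TUBB4B (chr9:137241259-137247792), also made in most cells and abundant in ciliated ones, stood at 295 FPKM in the LPA library and 269 FPKM in the control library, a log2 ratio of 0.14. These 2 genes together made up most of the beta-tubulin RNA, 721 FPKM in the LPA library and 681 FPKM in the control library. TUBB3 (chr16:89922009-89936097), the beta isotype used as a neuronal marker and also found in many carcinoma lines, stood at 89.3 FPKM in the LPA library and 91.4 FPKM in the control library. Its log2 ratio of −0.03 was the smallest in size of all members. TUBB2A (chr6:3153666-3157549), a beta isotype abundant in brain, stood at 14.6 FPKM in the LPA library and 12.3 FPKM in the control library, a log2 ratio of 0.22. TUBB2B (chr6:3224261-3227734), another brain isotype, was near the limit of detection at 0.257 FPKM in the LPA library and 0.337 FPKM in the control library, from about 8 and 11 fragments, and was not counted among the 9.

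TUBB6 (chr18:12307669-12377276), a beta isotype of many non-neuronal cells, stood at 65.8 FPKM in the LPA library and 52.3 FPKM in the control library, a log2 ratio of 0.33 at percentile 92.0. The whole difference lay in isoforms of 1 of its 2 start site IDs. Isoforms of the first, TSS14474, summed to 38.3 FPKM in the LPA library and 40.4 FPKM in the control library. Isoforms of the second, TSS14475, summed to 27.6 FPKM in the LPA library and 12 FPKM in the control library, 2.30-fold higher in the LPA library. The second start site ID therefore held 41.9% of TUBB6 in the LPA library and 22.9% in the control library. Its main isoform, NM_032525, stood at 17.6 FPKM (bounds 4.36 to 30.8) in the LPA library and 6.75 FPKM (bounds 0 to 13.6) in the control library. NM_001303527 stood at 5.13 FPKM in the LPA library and 2.46 FPKM in the control library, and NM_001303529 at 2.53 FPKM in the LPA library and 0.237 FPKM in the control library. The bounds of each of these isoforms overlapped between the libraries, so none of them stood apart. The other isoforms of the second start site ID were low and did not share one direction. NM_001303530 stood at 0.162 FPKM in the LPA library and 0.0194 FPKM in the control library. NM_001303526 stood at 1.83 FPKM in the LPA library and 1.87 FPKM in the control library. For NM_001303525 the values were 0.371 FPKM in the LPA library and 0.635 FPKM in the control library, and NM_001303528 was listed at 0 in both. The leading isoform of TUBB6 in both libraries was NM_001303524 of the first start site ID, at 33.6 FPKM (bounds 15.5 to 51.7) in the LPA library and 35.9 FPKM (bounds 19.9 to 51.9) in the control library. The locus that the table gives for TUBB6 also holds AFG3L2, at 33.9 FPKM in the LPA library and 25.8 FPKM in the control library, a log2 ratio of 0.38. The library kit does not mark strand, and any part of AFG3L2 reads in the TUBB6 values was not tested.

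**Figure D5:**
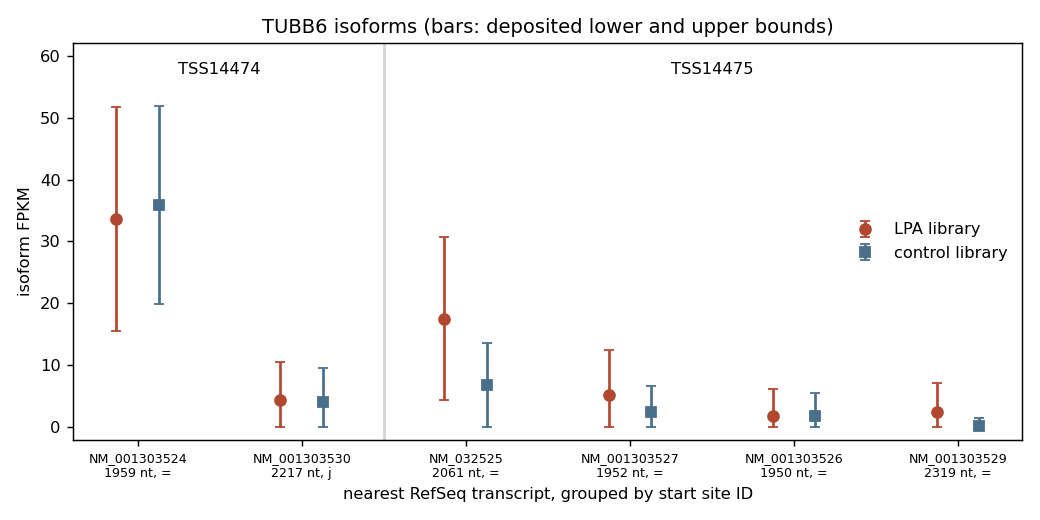
FPKM of the TUBB6 isoforms with a mean of at least 1 FPKM, grouped by start site ID, LPA library (circles) to the left of the control library (squares), with the authors' lower and upper bounds as bars. NM_032525 of TSS14475 is at 17.6 FPKM in the LPA library against 6.75 in the control library, while NM_001303524 of TSS14474 is at 33.6 FPKM in the LPA library against 35.9 in the control library, and the bounds overlap for every isoform drawn.

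RefSeq places 2 starts of TUBB6 on the plus strand of GRCh38.p14, and the bases upstream of each are shown because the 2 start site IDs differed between the libraries by unlike amounts. The table gives no start position per isoform. The GENCODE model of NM_032525, the main isoform of TSS14475, begins just after 12308058, between the 2 RefSeq starts and nearer the second. Where the isoforms of TSS14474 begin is not known here. Capitals mark GGGCGG, the core of a GC box, on either strand. The window upstream of 12307669 is printed whole. That upstream of 12308241 is printed only up to the last base before the GENCODE model of NM_032525.
TUBB6 chr18:12307419-12307668: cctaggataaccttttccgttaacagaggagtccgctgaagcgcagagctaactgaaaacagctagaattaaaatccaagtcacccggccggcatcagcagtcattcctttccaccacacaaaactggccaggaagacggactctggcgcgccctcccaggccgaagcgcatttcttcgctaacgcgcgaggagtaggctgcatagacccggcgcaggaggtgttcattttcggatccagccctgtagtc
TUBB6 chr18:12307991-12308058: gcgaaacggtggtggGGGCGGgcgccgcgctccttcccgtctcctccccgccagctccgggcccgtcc

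The 2 TUBB6 windows differ in composition, with 55.2% G and C over the first 250 bases and 83.6% over the full 250 bases before the second start. The second window held 6 GGGCGG and 1 CCAAT, and the first held neither. Of these 6 GGGCGG, 1 lay within the 68 bases printed. The rest of the second window lies past the start of the GENCODE model of NM_032525. Over 16 RefSeq windows of 250 bases upstream of the 10 members' starts, 9 held GGGCGG, against 42.6% of 35116 human windows. CCAAT was present in 10 of the 16, against 32.0% of all windows, and TATAAA in 1 of the 16, that of TUBB2A, against 10.7%. None of the 16 held a CArG box, the sequence bound by serum response factor, which 1.16% of all windows held. Both strands were searched, overlapping matches were counted, and several windows belong to the same gene. The TUBA1C windows chr12:49227676-49227925 and chr12:49227769-49228018 overlap and each held 1 CCAAT, which may be the same one. The counts out of 16 are therefore not of separate windows throughout.

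What the members share most is their coding sequence, and this bears on how well reads can be assigned to them. The last 60 coding bases, stop codon included, encode the carboxy-terminal tail, and they are shown for 2 pairs of beta genes. Capitals mark bases with no match in the gene named first in each pair, which include bases at the left end where a tail is shorter. All are from GENCODE transcripts on GRCh38. TUBB4B lies on the plus strand at chr9:137243497-137243556 and TUBB4A on the minus strand at chr19:6495164-6495223. TUBB2A and TUBB2B lie on the minus strand at chr6:3153863-3153922 and chr6:3224751-3224810.
TUBB4B: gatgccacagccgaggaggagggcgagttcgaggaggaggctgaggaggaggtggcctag
TUBB4A: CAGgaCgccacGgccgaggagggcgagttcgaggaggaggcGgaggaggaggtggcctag
TUBB2A: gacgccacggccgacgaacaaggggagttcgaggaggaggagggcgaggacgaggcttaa
TUBB2B: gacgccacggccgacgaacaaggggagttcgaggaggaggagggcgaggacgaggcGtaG

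TUBB4A matched TUBB4B at 54 of these 60 bases, and TUBB2B matched TUBB2A at 58. Neither pair therefore shows tails that differ widely. Over the whole coding sequence TUBA1A and TUBA1B were 97.2% identical and TUBA1B and TUBA1C 96.8%. TUBB2A and TUBB2B were 98.1% identical, and TUBB4A and TUBB4B 87.3%. The least alike pair of beta genes was TUBB and TUBB6, at 81.0%. Of all 50-base stretches of the TUBA1A transcript, 51.7% also occurred in another member, and 51.8% in any other GENCODE gene, pseudogenes included. Both shares were higher for TUBA1B, at 56.6% in another member and 87.1% in any other gene. For TUBA1C they were 25.1% and 40.1%, over a GENCODE transcript of 3001 nt where the isoform in the deposited table has 1644 nt. TUBB2A had 60.4% in another member and 65.5% in any other gene, and TUBB2B 47.3% and 52.2%. The other members are counted among the other genes, so the share in any other gene cannot be below the share in another member. TUBB had 0% in another member and 30.8% in any other gene, TUBB4A 5.99% and 25.1%, and TUBB4B 6.49% and 14.6%. TUBB3 had 8.84% in another member and 89.4% in any other gene, all of the second share in AC092143.1. TUBB6 had the lowest share in any other gene, 0.993%. No source used here gives the read length or the treatment of reads with several matches, so the values are uncertain gene by gene to an unknown extent. The shares in any other gene do not measure that extent. Whether those genes lie at the same locus as the member was not examined. With the 3 alpha genes summed, the opposite directions of TUBA1A and TUBA1C drop out of the value, which was 1078 FPKM in the LPA library and 939 FPKM in the control library.

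As a class the alpha-tubulins were 1.15-fold and the beta-tubulins 1.06-fold higher in the LPA library. The 7 beta genes summed to 909 FPKM in the LPA library and 861 FPKM in the control library. All 10 members together made up 0.280% of all FPKM in the LPA library and 0.251% in the control library. The ratio of alpha to beta FPKM was 1.19 in the LPA library and 1.09 in the control library. These ratios compare RNA and not protein, since subunits are made and degraded after the RNA.

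Around the members, 5 lists of tubulin-related genes were read, and among their genes with a mean of at least 1 FPKM none was 1.5-fold or more apart on the FPKM + 1 scale. Of the 13 other tubulin genes 6 had a mean of at least 1 FPKM, 4 of them with a log2 ratio above 0 and 2 below, with a median of 0.09. The largest of these ratios was that of TUBG1, the gamma-tubulin from which microtubules are nucleated, at 44.2 FPKM in the LPA library and 36.3 FPKM in the control library. TUBA4A stood at 13.5 FPKM in the LPA library and 11.9 FPKM in the control library, and TUBD1 at 7.48 FPKM in the LPA library and 6.78 FPKM in the control library. The lowest 3 ratios were those of TUBA8, TUBE1 and TUBG2, from −0.17 to 0.06. In the list around the gamma-tubulin ring complex, which forms the template for new microtubules, 5 of 12 genes were above 0 and 7 below, with a median of −0.02. PCNT, MZT2A and TUBGCP4 had the highest ratios there, 0.28, 0.18 and 0.15, and MZT1, TUBGCP6 and MZT2B the lowest, −0.19, −0.15 and −0.07.

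The chaperones that fold tubulin divided almost evenly. Of 23 genes for folding and autoregulation 12 were above 0 and 11 below, with a median of 0.01. PFDN2, a prefoldin subunit, stood at 221 FPKM in the LPA library and 168 FPKM in the control library, and TCP1, a subunit of the CCT chaperonin, at 140 FPKM in the LPA library and 109 FPKM in the control library. CCT5, of the same chaperonin, stood at 130 FPKM in the LPA library and 104 FPKM in the control library. The lowest ratios were −0.50 for VBP1 and −0.33 for PFDN4, both prefoldin subunits, and −0.42 for TBCE, a cofactor that acts on alpha-tubulin. TTC5, which triggers decay of tubulin mRNA when free dimers are in excess, stood at 5.27 FPKM in the LPA library and 6.42 FPKM in the control library.

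Among proteins that bind or alter microtubules, 21 of 27 microtubule-associated and plus-end genes had a mean of at least 1 FPKM, 12 above 0 and 9 below, with a median of 0.01. MAP4, a microtubule stabiliser, stood at 35.5 FPKM in the LPA library and 28.0 FPKM in the control library. SPAST, a microtubule-severing enzyme, had a ratio of 0.19. KIF18A, a kinesin that limits the length of spindle microtubules, had the lowest ratio, at 7.49 FPKM in the LPA library and 10.2 FPKM in the control library, followed by MAPRE3 at −0.21 and MAP7 at −0.14. Of the 15 tubulin-modifying enzymes 5 were above 0 and 10 below, with a median of −0.13. TTLL4, a glutamylase, stood at 5.65 FPKM in the LPA library and 3.86 FPKM in the control library. TTL, which adds back the terminal tyrosine of alpha-tubulin, stood at 11.2 FPKM in the LPA library and 8.37 FPKM in the control library, and TTLL5 had the next ratio, 0.19. ATAT1, the alpha-tubulin acetyltransferase, stood at 6.06 FPKM in the LPA library and 9.30 FPKM in the control library, a log2 ratio of −0.55. HDAC6, which removes the same acetyl group, stood at 6.69 FPKM in the LPA library and 8.71 FPKM in the control library, and TTLL7 had a ratio of −0.29. For comparison, 50.2% of all 11688 genes were above 0. The 22 reference genes had a median of 0.05, with B2M the only one 1.5-fold apart, at 619 FPKM in the LPA library and 935 FPKM in the control library.

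Because TUBB3 and TUBB4A are known from neurons, markers of other cell types were read in the same libraries. Of 9 epithelial markers 7 had a mean of at least 1 FPKM, with EPCAM at 223 FPKM in the LPA library and 220 FPKM in the control library, while VIL1 and CEACAM5 were listed at 0 in both. All 7 were higher in the LPA library, with sums of 3921 FPKM in the LPA library and 3000.4 FPKM in the control library, and KRT18, a keratin, was more than 1.5-fold higher, at 741 FPKM in the LPA library and 442 FPKM in the control library. Of 10 neuronal markers 1, SYT1, had a mean of at least 1 FPKM, at 17.0 FPKM in the LPA library and 14.3 FPKM in the control library, and 5 were listed at 0 in both. Fibroblast markers reached that level in 2 of 10 genes, immune markers in 1 of 12 and endothelial markers in 0 of 6, with sums of 16.0, 3.97 and 0.280 FPKM in the LPA library and 16.8, 3.53 and 0.105 FPKM in the control library. The part of these differences in the tubulin values was not tested.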

How the data were processed

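RNA was extracted with Trizol, selected for poly-A and made into libraries with an unstranded TruSeq V2 kit, per the labels' protocols. TopHat2 2.0.12, Cuffdiff 2.2.0, Cufflinks and bcl2fastq 2.16.0.10 were used with the hg38 build, per the submitters' processing notes. No source used here gives their settings. The authors deposited FPKM for each isoform with lower and upper bounds, in the layout of a Cuffdiff table, per the file headers. All 113 member isoforms had the status OK. The 16 isoforms marked HIDATA in the LPA library were treated as missing, which was decided after seeing the table.

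Isoform FPKM were summed by symbol with Python 3.11.15 and pandas 2.3.3. Counts over genes used a mean of at least 1 FPKM, and a pseudocount of 1 FPKM, which understates differences of low genes. An isoform share is its FPKM over the sum of its gene. Depth was estimated in 6777 genes with 1 isoform and a length above 2000 nt. The median of FPKM times length in kb, over values from 0.04 to 0.09, was taken as 1 fragment. That range was set beforehand and limits the estimate. Table starts were made 1-based. RefSeq identifiers were linked to GENCODE release 29, and sequences compared with Biopython 1.88. The counting steps were tested on simulated data.

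The members and the gene lists were chosen with earlier results of these data known. Named genes were all members, the 3 highest and lowest log2 ratios of each list, genes 1.5-fold apart in a list, and the 5 genes nearest to TUBB4A in share gain. Of these, 2 are not reported here. The reference list is given by its median and its 1 gene 1.5-fold apart only. TTC5, EPCAM, SYT1, VIL1, CEACAM5 and AFG3L2 were named after their values were seen. Other scalings, filters, pseudocounts and summing rules were tried as alternatives.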

Additional observations from a re-analysis of the deposited data

How the results depend on the processing

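No paired analysis was possible because each group has 1 library, so the groups share 1 replicate number, and no replicate could be left out. Of 65 alternative values of the members' log2 ratios 59 moved by less than 0.1. Many of them could not have moved further. Centring on all genes or on the reference genes shifted every member alike, by 0.0009 or 0.05. Members with 1 isoform could not change when 1 isoform stood for the gene. The 59 is therefore no measure of how stable the ratios are. With the isoform of the highest mean over both libraries standing for the gene, TUBB4A had a ratio of −4.25, TUBB6 −0.09 and TUBB −0.01. For TUBB4A this isoform was NM_001289127, which led only in the control library, so −4.25 restates the isoform difference. TUBB was also at −0.01 when centred on the reference genes. TUBA1A was at 0.20 when the 3 TUBA1 genes were summed, and TUBB2B at 0.21 when summed with TUBB2A. With isoforms summed by start site ID, 0 members had a different leading entry. The bounds allow a share difference (LPA minus control) of 65.6 to 99.3 points for TUBB4A NM_001289123 and up to −87.9 for NM_001289127, whose value was −98.0. They allow the sign to turn, with upper limits of 4.11 points for TUBA1A NM_006009, 41.6 for TUBB NM_178014, 5.87 for TUBB2A NM_001069, 8.02 for TUBB3 NM_006086 and 60.5 for TUBB6 NM_001303524. Genes at least 1.5-fold higher in the LPA library numbered 169, against 108 at a mean of at least 5 FPKM, 281 with a pseudocount of 0.1 and 70 with one of 5. Genes at least 1.5-fold lower numbered 180, against 101, 372 and 41. Centred on the reference genes, they numbered 127 higher and 258 lower. The beta list's median was −0.029 with the isoforms of the highest mean, against 0.09, and it includes that −4.25 of TUBB4A. The microtubule-associated list's median was −0.095 at a mean of at least 5 FPKM, against 0.01. The cause of these shifts was not tested.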
